A study of Mus musculus with 9 samples.

Results

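The genes described here encode secreted proteins of the acute phase: the 3 fibrinogen chains Fga, Fgb and Fgg, the serum amyloid A proteins Saa1, Saa2 and Saa3, haptoglobin (Hp), orosomucoid (Orm1) and ceruloplasmin (Cp). They were chosen by name, as the rows of the count tables whose Ensembl identifier carries one of these 9 symbols in GENCODE M21, and all 9 were found among 29678 gene rows. Of the 9, 8 passed the filter on low counts and were tested, and Saa2 did not pass it. The libraries were made from poly(A)-selected RNA of mouse kidney, taken 24 h after reperfusion.

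The groups were kidneys of mice pretreated with sodium beta-hydroxybutyrate before bilateral ischemia-reperfusion injury (BHBNa_bIRI, 3 libraries), kidneys with the same injury and no pretreatment (bIRI), and kidneys of sham-operated mice (Sham, 3 libraries). Beta-hydroxybutyrate is a ketone body made by the liver in fasting. The labels name 3 bIRI libraries, but replicate 2 held, for every gene, the average of replicates 1 and 3 without its decimals. It adds no measurement and was left out, so that bIRI had 2 libraries and 8 were used. The labels give neither the dose and timing of the pretreatment nor the strain, age, sex or number of the mice. Nor do they say whether libraries came from separate animals, so that p-values measure only the spread between libraries.

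Fibrinogen is a hexamer of paired alpha, beta and gamma chains that thrombin cuts to form fibrin, the mesh of a blood clot. Liver cells make most of it, and in the acute phase response interleukin 6 and related cytokines, acting through the receptor subunit gp130 and the transcription factor STAT3, together with interleukin 1 acting through C/EBP and NF-kappa-B factors, raise its genes with those of serum amyloid A, haptoglobin and orosomucoid. Injured kidney tubules are also known to make fibrinogen chains.

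Total counts ran from 33477985 in bIRI replicate 3 to 45909063 in Sham replicate 2, and 3 counts corresponded to 0.0646 to 0.0815 CPM (read counts scaled to a common library size, after TMM normalization). The 12 listed markers of kidney epithelium were detected in each group, with summed levels of 2270 to 2858 CPM in BHBNa_bIRI, 3109 and 6265 CPM in bIRI and 10430 to 12983 CPM in Sham. Summed levels of 9 markers of injured tubules were 17003 to 19007 CPM in BHBNa_bIRI, 27605 and 16985 CPM in bIRI and 773 to 916 CPM in Sham. In bulk tissue, fewer cells of a type and less RNA per cell cannot be told apart, and this holds for each gene below. In 1 library, BHBNa_bIRI replicate 2, adipocyte transcripts stood far above the others, and results that rest on it are given with and without it.

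The fibrinogen genes lie side by side on chromosome 3 (GRCm38), within 42.1 kb: Fgg at 83007724 to 83015049 on the plus strand, Fga at 83026076 to 83033627 on the plus strand and Fgb at 83040141 to 83049863 on the minus strand. The serum amyloid A genes share a span of 42.3 kb on chromosome 7, with Saa3 at 46711998 to 46715700 and Saa1 at 46740497 to 46742980, both on the minus strand, and Saa2 at 46751790 to 46754313 on the plus strand. Cp lies at 19957054 to 20009145 on the plus strand of chromosome 3, Hp at 109575128 to 109579172 on the minus strand of chromosome 8, and Orm1 at 63344560 to 63348163 on the plus strand of chromosome 4. RefSeq promoter windows on GRCm38.p6, from 250 bases before to 50 bases after the RefSeq start, were matched by symbol for 7 of the 9 genes, without Hp and Orm1. The windows of the 3 fibrinogen chains are shown because these genes moved together against Sham, and those of Saa1 and Saa2 because they are near copies. Each is written 5′ to 3′ on the strand of the gene, at chr3:83025903-83026202 (plus) for Fga, chr3:83049814-83050113 (minus) for Fgb, chr3:83007474-83007773 (plus) for Fgg, chr7:46742931-46743230 (minus) for Saa1 and chr7:46751583-46751882 (plus) for Saa2, with the matches to the motifs below in capitals.
Fga: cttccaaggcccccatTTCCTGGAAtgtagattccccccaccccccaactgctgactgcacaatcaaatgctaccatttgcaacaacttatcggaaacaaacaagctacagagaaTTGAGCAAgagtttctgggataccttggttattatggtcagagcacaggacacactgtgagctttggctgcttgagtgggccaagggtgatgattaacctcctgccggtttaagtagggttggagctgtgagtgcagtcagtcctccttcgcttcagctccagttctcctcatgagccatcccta
Fgb: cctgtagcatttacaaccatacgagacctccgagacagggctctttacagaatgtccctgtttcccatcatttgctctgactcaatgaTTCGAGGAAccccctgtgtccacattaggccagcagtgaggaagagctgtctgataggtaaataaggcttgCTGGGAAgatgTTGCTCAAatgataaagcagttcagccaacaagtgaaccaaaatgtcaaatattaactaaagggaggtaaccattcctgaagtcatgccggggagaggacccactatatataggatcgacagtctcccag
Fgg: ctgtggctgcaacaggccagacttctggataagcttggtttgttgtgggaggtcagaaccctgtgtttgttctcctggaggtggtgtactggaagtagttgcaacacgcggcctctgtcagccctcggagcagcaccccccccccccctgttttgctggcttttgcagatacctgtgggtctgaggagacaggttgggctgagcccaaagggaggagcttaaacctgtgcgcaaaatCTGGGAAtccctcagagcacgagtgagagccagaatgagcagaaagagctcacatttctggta
Saa1: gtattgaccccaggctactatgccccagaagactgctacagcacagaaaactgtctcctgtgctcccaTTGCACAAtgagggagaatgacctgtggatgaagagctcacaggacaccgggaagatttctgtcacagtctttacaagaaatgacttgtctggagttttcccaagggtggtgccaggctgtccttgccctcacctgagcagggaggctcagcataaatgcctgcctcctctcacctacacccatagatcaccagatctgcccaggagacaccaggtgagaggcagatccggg
Saa2: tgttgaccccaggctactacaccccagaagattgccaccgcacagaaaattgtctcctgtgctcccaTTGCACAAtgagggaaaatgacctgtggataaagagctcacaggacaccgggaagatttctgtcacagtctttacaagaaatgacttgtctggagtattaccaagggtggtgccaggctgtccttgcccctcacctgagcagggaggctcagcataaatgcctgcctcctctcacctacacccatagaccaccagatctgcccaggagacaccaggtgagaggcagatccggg

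Motifs were searched on both strands of these windows. The core of the type II interleukin 6 response element, CTGGGAA, was found in Fgb, from 91 to 85 bases before the start, and in Fgg, from 13 to 7 bases before it, and in 11.1% of 32841 RefSeq windows of the same length. The STAT site TTCNNNGAA was found in Fga and Fgb, and in 8.30% of all windows. The C/EBP-like site TTGCNNAA was found in Fga, Fgb, Saa1, Saa2 and Saa3, and in 10.8% of all windows. The NF-kappa-B consensus, held by 4.51% of all windows, was found in none of the 7. None of these motifs was matched in the Cp window. No match overlapped another. The windows of Saa1 and Saa2 were identical in 287 of 301 aligned columns (95.3%). A match describes letters and not a bound site, and its absence says nothing about the factor.

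**Figure D1:**
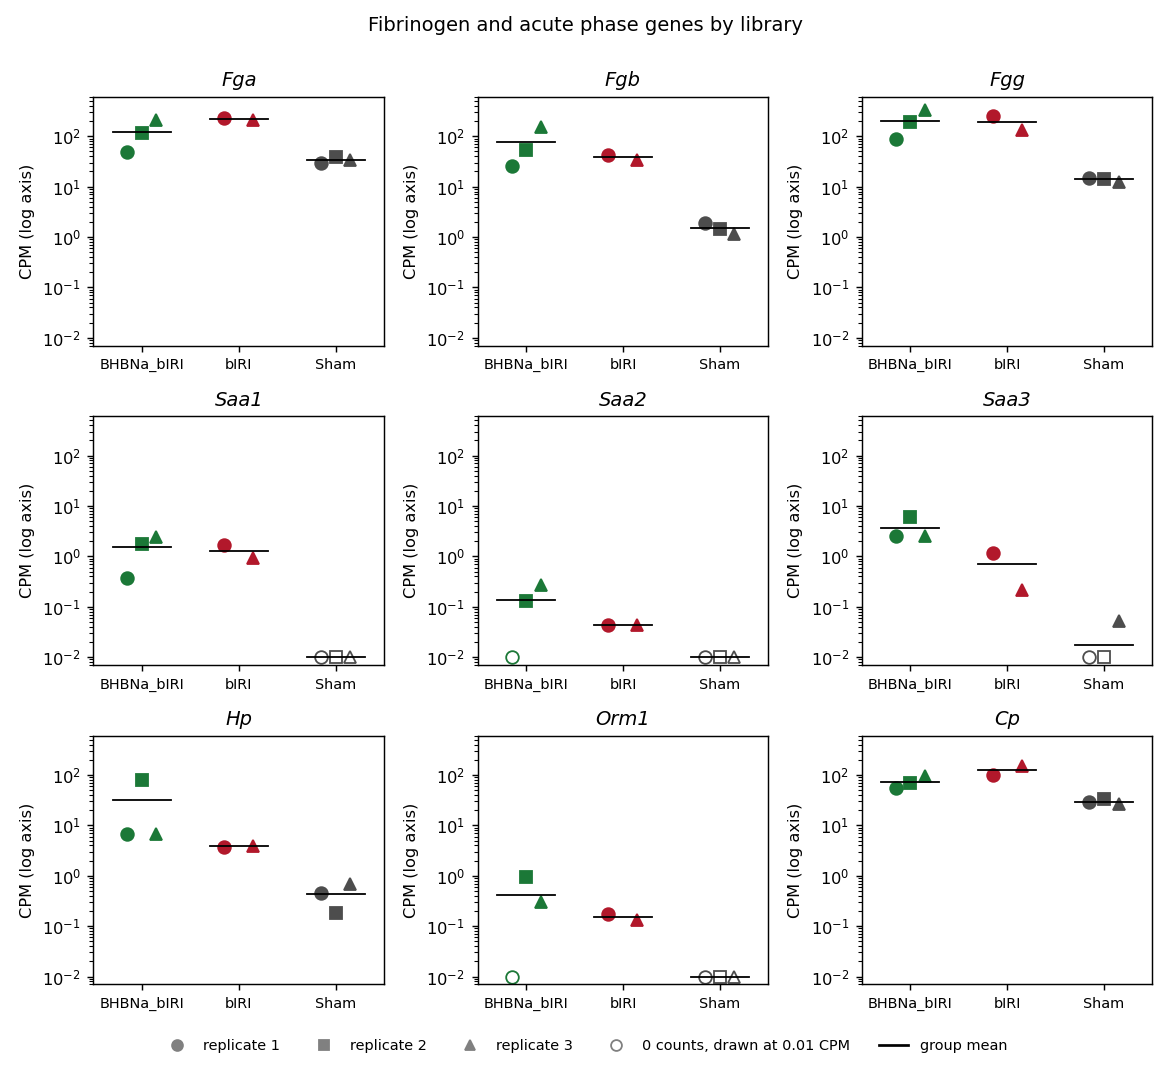
Level of each gene in each library, in CPM on a log axis, with BHBNa_bIRI on the left, bIRI in the middle and Sham on the right. Marker shapes give the replicate, lines give group means and open symbols are libraries with 0 counts, drawn at 0.01 CPM. Fgb, Fgg, Fga, Cp and Hp are above their Sham levels in every injured library, and Hp stands apart in BHBNa_bIRI replicate 2 at 81.3 CPM.

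The first comparison asked what bilateral ischemia-reperfusion did to these genes without pretreatment. All 3 fibrinogen chains, Saa1, Saa3, Hp and Cp were higher in bIRI than in Sham, which is 7 of the 8 genes tested at an adjusted p under 0.05, where 35.1% of all 17967 genes tested were called in either direction, 18.9% higher and 16.2% lower. The 8 genes tested had higher levels in both bIRI libraries than in every Sham library, as did 28.7% of all genes tested. The median log2 fold change over all genes tested was 0.08. P-values are from edgeR's quasi-likelihood test, adjusted by Benjamini and Hochberg over all genes tested within a comparison, and ± after a log2 fold change is its standard error.

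Fgb, the chain with the lowest Sham level, rose most among the 3 chains in its estimate. Fgb was at 41.8 and 34.5 CPM in bIRI, against 1.94, 1.42 and 1.14 CPM in Sham. The bIRI libraries lay far above the Sham range, and the log2 fold change was 4.67 ± 0.63, or 25.4-fold (adjusted p = 0.000731). Fgg, the gamma chain, was at 249 and 133 CPM in bIRI, against 14.8, 14.4 and 12.4 CPM in Sham. Its groups did not overlap, and it was 13.8-fold higher, a log2 fold change of 3.78 ± 0.49 (adjusted p = 0.000555), or 3.19 without bIRI replicate 1. Fga, the alpha chain, was at 227 and 208 CPM in bIRI, against 29.6, 38.2 and 34.1 CPM in Sham. It too had no overlap, with a smaller log2 fold change of 2.68 ± 0.46, or 6.40-fold (adjusted p = 0.00238). The differences between the 3 chains in fold change were not tested. A lincRNA, Gm30097, overlaps Fgg on the other strand and held 58 counts over the 9 tables, against 52859 for Fgg.

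Serum amyloid A proteins are carried on high density lipoprotein in the acute phase. Saa1 had 76 and 42 counts in bIRI, or 1.66 and 0.916 CPM, and 0 counts in all 3 Sham libraries. Against a floor of 3 counts per library in Sham, bIRI was at least 17.5-fold higher (adjusted p = 0.00287). Saa2, its near copy, had 2 counts in each bIRI library and 0 in Sham, at or under that floor, and was not tested. The transcripts of Saa1 and Saa2 were identical in 93.9% of aligned columns, with a shared run of 99 bases, so that reads may have been split between them or lost, and the split is uncertain. Saa1 held 97.4% and 95.5% of the summed counts of both genes in bIRI replicates 1 and 3. Saa3, which in mice is made outside the liver by macrophages, adipocytes and epithelia, had 54 and 10 counts in bIRI, or 1.18 and 0.218 CPM, against 0, 0 and 2 counts in Sham. The bIRI libraries differed 5.42-fold between themselves and both lay above Sham. The ratio of summed counts per library size was 42.9, with an exact interval at 95% of 11.4 to 362 that covers counting error only (adjusted p = 0.00679). The log2 fold change of 5.18 ± 1.11 was 3.45 without bIRI replicate 1, 5.94 without bIRI replicate 3 and 7.92 without Sham replicate 3, which holds both Sham counts, and it was called in each.

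Haptoglobin binds free hemoglobin and orosomucoid binds drugs and lipids in plasma. Hp was at 3.65 and 3.97 CPM in bIRI, against 0.447, 0.183 and 0.672 CPM in Sham. The groups did not overlap, but the log2 fold change of 3.14 ± 1.08 was close to the threshold (adjusted p = 0.0478), and leaving out any Sham or bIRI library lost the call, with adjusted p-values of 0.0881 to 0.303. Orm1 had 8 and 6 counts in bIRI and 0 in each Sham library, at least 2.08-fold higher over the floor, and was not called (adjusted p = 0.102). Its copies Orm2 and Orm3 are identical to it in 91.0% and 86.1% of aligned transcript columns, so that its counts are uncertain. Ceruloplasmin, the copper-carrying ferroxidase of plasma, was at 101 and 149 CPM in bIRI, against 28.9, 33.1 and 27.1 CPM in Sham. Cp groups did not overlap, with a 4.22-fold rise and a log2 fold change of 2.08 ± 0.26 (adjusted p = 0.000461). Hps3 overlaps Cp on the other strand with 9651 counts over the 9 tables, against 29990 for Cp, and without a stated strand setting reads of the overlap cannot be assigned.

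**Figure D2:**
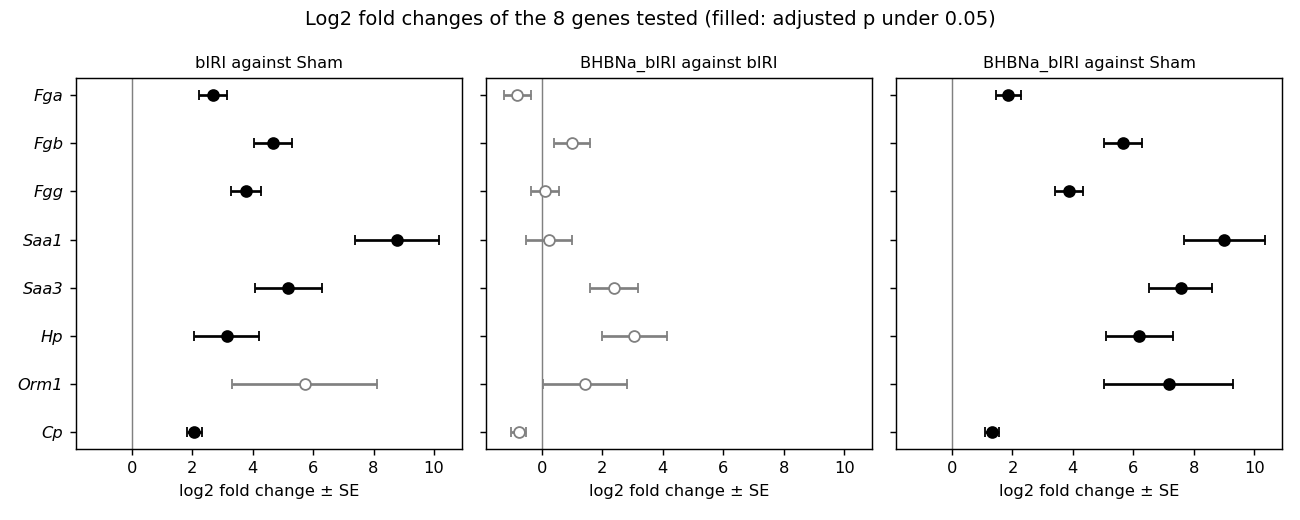
Log2 fold changes with standard errors (bars) for the 8 genes tested, in the 3 comparisons, with filled symbols for an adjusted p under 0.05. In the panel of bIRI against Sham 7 symbols are filled, in that of BHBNa_bIRI against bIRI none, and in that of BHBNa_bIRI against Sham all 8; the fitted values of Saa1 and Orm1 against Sham depend on the model because Sham had 0 counts.

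The next comparison asked whether pretreatment with beta-hydroxybutyrate changed these genes in injured kidneys. None of the 8 genes tested was called between BHBNa_bIRI and bIRI by edgeR, where 13.5% of all genes tested were called, 4.88% higher and 8.65% lower. Of the 8, 3 had an unadjusted p under 0.05, Saa3, Hp and Cp. DESeq2 called 2, Saa3 and Cp, where it called 24.7% of all genes tested, and gave no adjusted p for Hp. A fit that kept bIRI replicate 2 called 3, where 33.2% of all genes tested were called, and a fit with no filter called 2, where 12.1% were. A p that misses the threshold does not show that the levels were alike, and the standard errors below allow sizeable differences. The count over all genes was itself unstable, at 2431 in the fit reported and between 0 and 8381 when a library was left out.

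Fga was at 48.0, 114 and 210 CPM in BHBNa_bIRI, against 227 and 208 CPM in bIRI. Replicate 3 of BHBNa_bIRI lay between the bIRI libraries and the others lay below, and the log2 fold change was -0.81 ± 0.45 (adjusted p = 0.234). Fgb was at 25.6, 53.0 and 150 CPM in BHBNa_bIRI, against 41.8 and 34.5 CPM in bIRI. Here 2 of 3 pretreated libraries lay above both bIRI libraries and the estimate was positive, at 1.00 ± 0.59 (adjusted p = 0.257), but 0.04 without BHBNa_bIRI replicate 3. Fgg was at 86.4, 191 and 335 CPM in BHBNa_bIRI, against 249 and 133 CPM in bIRI. Its pretreated libraries lay on both sides of the bIRI libraries, with a log2 fold change of 0.09 ± 0.47 (adjusted p = 0.906), which was negative without bIRI replicate 3 (-0.29) or BHBNa_bIRI replicate 3 (-0.46). Within BHBNa_bIRI, replicate 1 was lowest and replicate 3 highest for all 3 chains, by ratios of 4.37 for Fga, 5.85 for Fgb and 3.88 for Fgg. In Sham those ratios of highest to lowest were 1.29, 1.70 and 1.20.

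In the libraries used, the balance of the chains differed between the groups. Ratios of TPM, a level that divides counts by transcript length, were computed within each library. Fgb per Fga was 0.362, 0.315 and 0.484 in BHBNa_bIRI, 0.125 and 0.113 in bIRI, and 0.0444, 0.0252 and 0.0227 in Sham. Fgg per Fga was 2.67, 2.49 and 2.37 in BHBNa_bIRI, 1.63 and 0.952 in bIRI, and 0.744, 0.561 and 0.540 in Sham. For both ratios the groups did not overlap, with BHBNa_bIRI highest and Sham lowest. Single genes often separate too. Between BHBNa_bIRI and bIRI, 22.2% of all genes tested did so with BHBNa_bIRI higher and 23.8% with it lower. The share over ratios of other gene pairs was not computed. The order of the ratios was noticed after the values were seen and is given as a description with no test. The level of a ratio depends on the transcript length chosen, with 3810 bases for Fgb, 2587 for Fga and 1741 for Fgg.

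**Figure D3:**
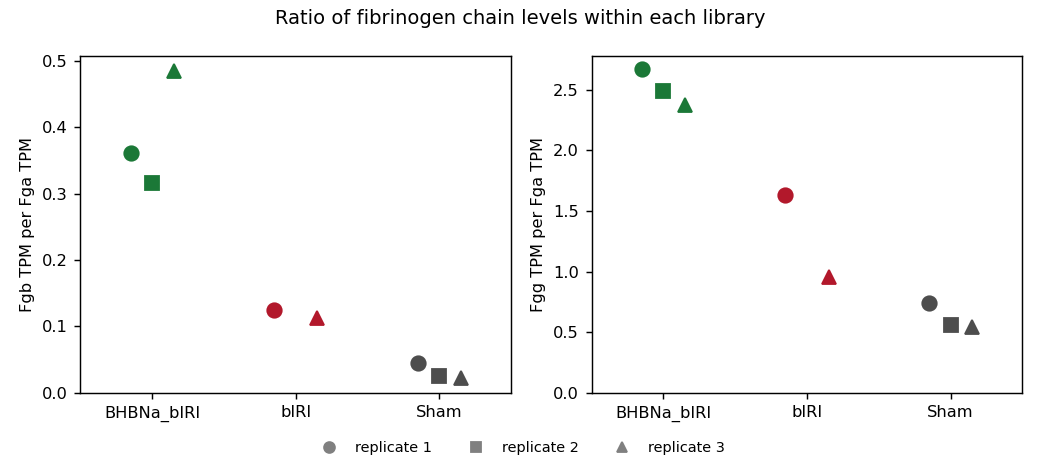
Fgb TPM per Fga TPM (left) and Fgg TPM per Fga TPM (right) in each library, on linear axes from 0, with BHBNa_bIRI, bIRI and Sham from left to right. The 3 BHBNa_bIRI libraries lie at 0.315 or above for Fgb per Fga, the bIRI libraries at 0.125 and 0.113, and the Sham libraries at 0.0444 or below.

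Saa3 had 108, 276 and 94 counts in BHBNa_bIRI, or 2.52, 5.94 and 2.55 CPM, against 1.18 and 0.218 CPM in bIRI. All 3 pretreated libraries lay above both bIRI libraries, as did 22.2% of all genes tested, and the log2 fold change was 2.39 ± 0.81 (adjusted p = 0.0736). It was 1.85 without BHBNa_bIRI replicate 2 (adjusted p = 0.188) and 1.63 without bIRI replicate 3 (adjusted p = 0.151). Without bIRI replicate 1 it passed the threshold, at 4.12 (adjusted p = 0.00295), in a fit where 42.8% of all genes tested were called. Hp was at 6.85, 81.3 and 6.66 CPM in BHBNa_bIRI, against 3.65 and 3.97 CPM in bIRI. Replicate 2 lay far above the others, and the log2 fold change of 3.05 ± 1.07 (adjusted p = 0.0811) became 0.82 ± 0.48 without it (adjusted p = 0.275). Orm1 had 0, 44 and 11 counts in BHBNa_bIRI and 8 and 6 in bIRI, with replicate 2 again highest (log2 fold change 1.43 ± 1.39, adjusted p = 0.501). Saa1 had 16, 83 and 88 counts in BHBNa_bIRI, against 76 and 42 in bIRI, with overlapping groups (log2 fold change 0.23 ± 0.75, adjusted p = 0.857). Saa2 had 0, 6 and 10 counts in BHBNa_bIRI and 2 and 2 in bIRI. Cp was at 55.8, 68.5 and 96.8 CPM in BHBNa_bIRI, against 101 and 149 CPM in bIRI. Its pretreated libraries all lay below both bIRI libraries, as did 23.8% of all genes tested, and the log2 fold change was -0.76 ± 0.25 (adjusted p = 0.0705). Offsets for transcript length and GC content moved it to -0.17 (adjusted p = 0.734), and without bIRI replicate 1 it was -0.97 (adjusted p = 0.00888).

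Against Sham, the pretreated injured kidneys held higher levels of all 8 genes tested, where 43.6% of all genes tested were called, 21.3% higher and 22.2% lower. Apart from Orm1, the 7 others were higher in every pretreated library than in every Sham library, as were 32.6% of all genes tested. This comparison shares its Sham libraries with that of bIRI against Sham and its pretreated libraries with the last, so that the 3 are not independent. Fgb was 50.7-fold higher in BHBNa_bIRI than in Sham (log2 fold change 5.66 ± 0.64, adjusted p = 0.000175), Fgg 14.7-fold (3.88 ± 0.47, adjusted p = 0.00026) and Fga 3.65-fold (1.87 ± 0.43, adjusted p = 0.00682). Without BHBNa_bIRI replicate 3 the log2 fold change was 4.71 for Fgb and 1.26 for Fga, and both were still called. Summed over the 3 chains, the level was 160, 358 and 694 CPM in BHBNa_bIRI, 518 and 376 CPM in bIRI, and 46.4, 54.0 and 47.6 CPM in Sham. Cp was 2.48-fold higher (1.31 ± 0.23, adjusted p = 0.002). Saa1 was at least 20.6-fold higher over the floor (adjusted p = 0.00155), and Saa3 had a count ratio of 233 with an exact interval of 64.0 to 1926 (adjusted p = 0.000504). Saa2 as a group was at least 1.82-fold over the floor, with no test, although replicate 1 held 0 counts. Hp had a log2 fold change of 6.19 ± 1.11 (adjusted p = 0.00197), which was 3.96 ± 0.48 without BHBNa_bIRI replicate 2 (adjusted p = 0.000973). Saa3 had 7.57 ± 1.04, which was 7.03 without that library (adjusted p = 0.00263) and 10.31 without Sham replicate 3, a fitted value against 0 counts. Orm1 was at least 5.65-fold higher over the floor as a group (adjusted p = 0.0295), although replicate 1 held 0 counts as all Sham libraries did, and leaving out any Sham library lost the call, with adjusted p-values of 0.0652 to 0.071. Without BHBNa_bIRI replicate 2 Orm1 did not pass the filter.

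Levels between genes were compared per length, in TPM. In BHBNa_bIRI the order of means was Fgg (166 ± 82.5, SD, n = 3), Fga, Hp, Fgb and Cp, of which each neighbour overlapped the next, and then Saa1, Saa3, Orm1 and Saa2, which also overlapped their neighbours. In bIRI it was Fgg (245 ± 51.5, SD, n = 2) and Fga, which overlapped, then Cp at a mean of 66.2 TPM, Fgb at 23.1 TPM and Hp at 6.68 TPM, none of which overlapped the next above it, followed by Saa1, Saa3, Orm1 and Saa2. In Sham it was Fga (22.6 ± 3.44, SD, n = 3), Fgg and Cp, with overlap of the last pair, then Fgb at 0.684 TPM and Hp at 0.541 TPM, which overlapped. The place of Saa3 depends on the transcript used, since its coding transcripts are 555 and 2200 bases long.

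Markers of other cell types were read beside these genes. Hepatocytes are the main source of fibrinogen in the body, and 18 of their markers were listed. The summed level of the 18 was 38.5, 67.6 and 348 CPM in BHBNa_bIRI, 136 and 199 CPM in bIRI and 345, 504 and 478 CPM in Sham. Replicate 3 of BHBNa_bIRI reached the Sham range. The order within BHBNa_bIRI, with replicate 1 lowest and replicate 3 highest, was that of the fibrinogen chains, and also that of Cp and Saa1. Serpina1a, a protease inhibitor on the list, was at 8.93, 23.7 and 152 CPM in BHBNa_bIRI, 50.2 and 45.3 CPM in bIRI, and 43.3, 60.3 and 89.3 CPM in Sham. The 8 markers with a Sham mean under 1 CPM summed to 0.420, 0.904 and 1.25 CPM in BHBNa_bIRI, 0.372 and 1.16 CPM in bIRI, and 0.895, 1.69 and 1.27 CPM in Sham, in the same order within BHBNa_bIRI. Most of the sum over the 18 thus came from markers with a Sham mean of at least 1 CPM. The part of hepatocyte transcripts in the spread of the chains was not tested. Of 12 hepatocyte markers tested, 7 were called in bIRI against Sham, each of them lower, where 16.2% of all genes tested were called lower. Albumin was at 4.57, 2.54 and 2.80 CPM in BHBNa_bIRI, 2.58 and 1.18 CPM in bIRI, and 23.5, 22.7 and 26.1 CPM in Sham, so that it was lower in every injured library and did not share the order of the chains within BHBNa_bIRI. Markers at 0 in all libraries of a group were Cps1, Mup3 and Apoa5 in BHBNa_bIRI, Hamp and Apoa5 in bIRI, and Ahsg, Mup3, Hamp and Tat in Sham, and those 6 genes were at or under 0.109 CPM in every library.

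Adipocytes are a known source of haptoglobin, Saa3 and orosomucoid in mice. Of 10 adipocyte markers, 5 had a Sham mean under 1 CPM (Adipoq, Plin1, Lep, Retn and Cfd). Their summed level was 60.8 CPM in BHBNa_bIRI replicate 2, and 0.186 and 0.815 CPM in the other pretreated libraries, 1.88 and 2.20 CPM in bIRI, and 0.248 to 0.594 CPM in Sham. That library also held the highest Hp, Orm1 and Saa3, and the part of fat tissue in those values was not tested. The other 5 markers had a Sham mean of at least 1 CPM, among them Pck1, which kidney tubules also make. Over all 10 the sums were 859 to 1344 CPM in BHBNa_bIRI, 1876 and 1088 CPM in bIRI and 4074 to 5960 CPM in Sham.

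**Figure D4:**
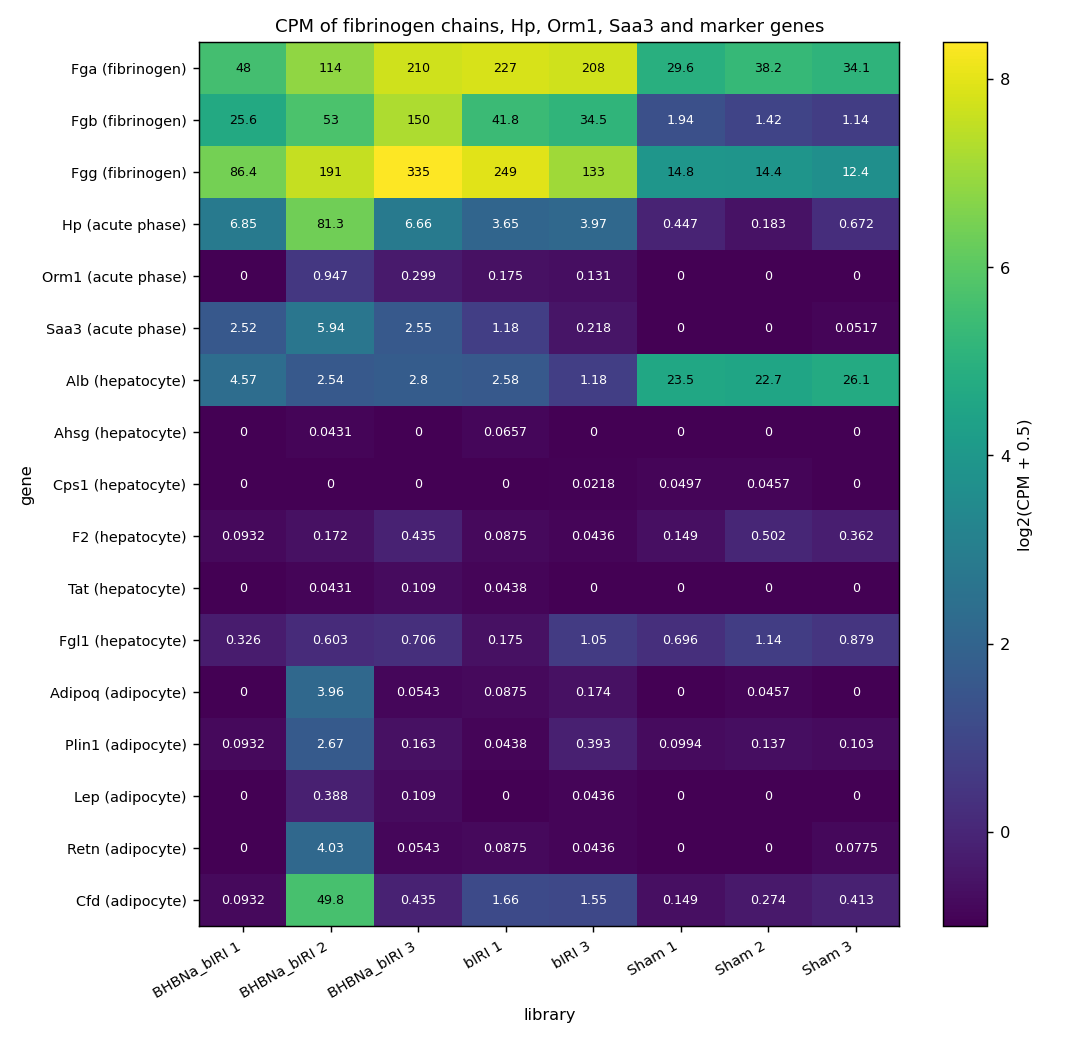
Level in CPM of the fibrinogen chains, Hp, Orm1, Saa3, 6 hepatocyte markers and 5 adipocyte markers in each library, with colour on a log2(CPM + 0.5) scale and the CPM printed in each cell. Fgb is at 25.6 CPM or more and Alb at 4.57 CPM or less in every injured library. The 6 hepatocyte markers drawn are a part of the 18 listed, whose sum was 38.5, 67.6 and 348 CPM in the BHBNa_bIRI libraries. That sum includes Serpina1a, which is not drawn. Hp and the 5 adipocyte markers are highest in BHBNa_bIRI replicate 2.

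Neutrophils carry haptoglobin in their granules, and macrophages make Saa3. The summed level of 12 neutrophil markers was 42.5, 75.9 and 49.0 CPM in BHBNa_bIRI. It was 15.4 and 6.09 CPM in bIRI and 1.94 to 2.71 CPM in Sham, the same order of groups as for Hp and Saa3. Of 8 tested, 4 were called in BHBNa_bIRI against bIRI, each of them higher, where 4.88% of all genes tested were called higher. With the replicate number as a block, and without Sham replicate 1 or 2 or BHBNa_bIRI replicate 1, 0 genes of the series were called in this comparison. The granule genes Camp and Mpo were at 0 in all BHBNa_bIRI libraries. The summed level of 12 macrophage and monocyte markers was 212, 259 and 244 CPM in BHBNa_bIRI. It was 160 and 139 CPM in bIRI and 132 to 217 CPM in Sham. For 7 platelet markers it was 16.9, 39.2 and 24.8 CPM in BHBNa_bIRI. In bIRI they were at 19.9 and 14.0 CPM, and in Sham at 10.4 to 13.6 CPM. Replicate 2 was the highest BHBNa_bIRI library for the neutrophil, macrophage and platelet sums. The part of these cells in the levels of Hp and Saa3 was not tested.

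Genes of the pathway upstream were read from a list of 29 for interleukin 6 family and interleukin 1 signalling. In bIRI against Sham, 14 of 27 tested were called higher and 3 lower, where 18.9% of all genes tested were called higher and 16.2% lower. The median log2 fold change of the list was 1.08, against 0.08 over all genes tested. Il6 itself was scarce, at 0.699, 1.77 and 1.17 CPM in BHBNa_bIRI, 2.47 and 0.0436 CPM in bIRI, and 0.0497, 0 and 0 CPM in Sham, so that bIRI replicate 3 lay within the Sham range. Against Sham it was called higher in bIRI (6.03 ± 1.54, adjusted p = 0.0146) and in BHBNa_bIRI (5.98 ± 1.49, adjusted p = 0.0102). Other ligands of the gp130 family were higher in bIRI than in Sham in both libraries: Lif by a log2 fold change of 5.22 ± 0.33 (adjusted p = 4.91e-05), Il11 by 4.94 ± 0.76 (adjusted p = 0.00133) and Clcf1 by 2.93 ± 0.30 (adjusted p = 0.00019). The receptor Osmr rose by 2.52 ± 0.21, Stat3 by 1.11 ± 0.17 and Socs3, a feedback inhibitor induced by STAT3, by 3.81 ± 0.26, with adjusted p-values of 8.68e-05, 0.00133 and 4.91e-05. In BHBNa_bIRI against bIRI, 5 of the 27 were called, each of them lower, where 13.5% of all genes tested were called and 8.65% were lower, with a median of -0.11 against -0.05 over all genes tested. Among them were Lif (-1.12 ± 0.28), the receptors Il6ra (-1.10 ± 0.31) and Lifr (-0.99 ± 0.24), and the kinase Jak2 (-0.90 ± 0.17), with adjusted p-values of 0.0275 to 0.0469. DESeq2 called 8 of the list lower and 3 higher, and no gene of the series was called with the replicate number as a block, which holds for every list below. Socs3 was at 41.0, 43.1 and 38.2 CPM in BHBNa_bIRI, against 57.3 and 30.7 CPM in bIRI, and was not called. In BHBNa_bIRI against Sham 13 were called higher and 3 lower, where 21.3% of all genes tested were called higher and 22.2% lower.

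**Figure D5:**
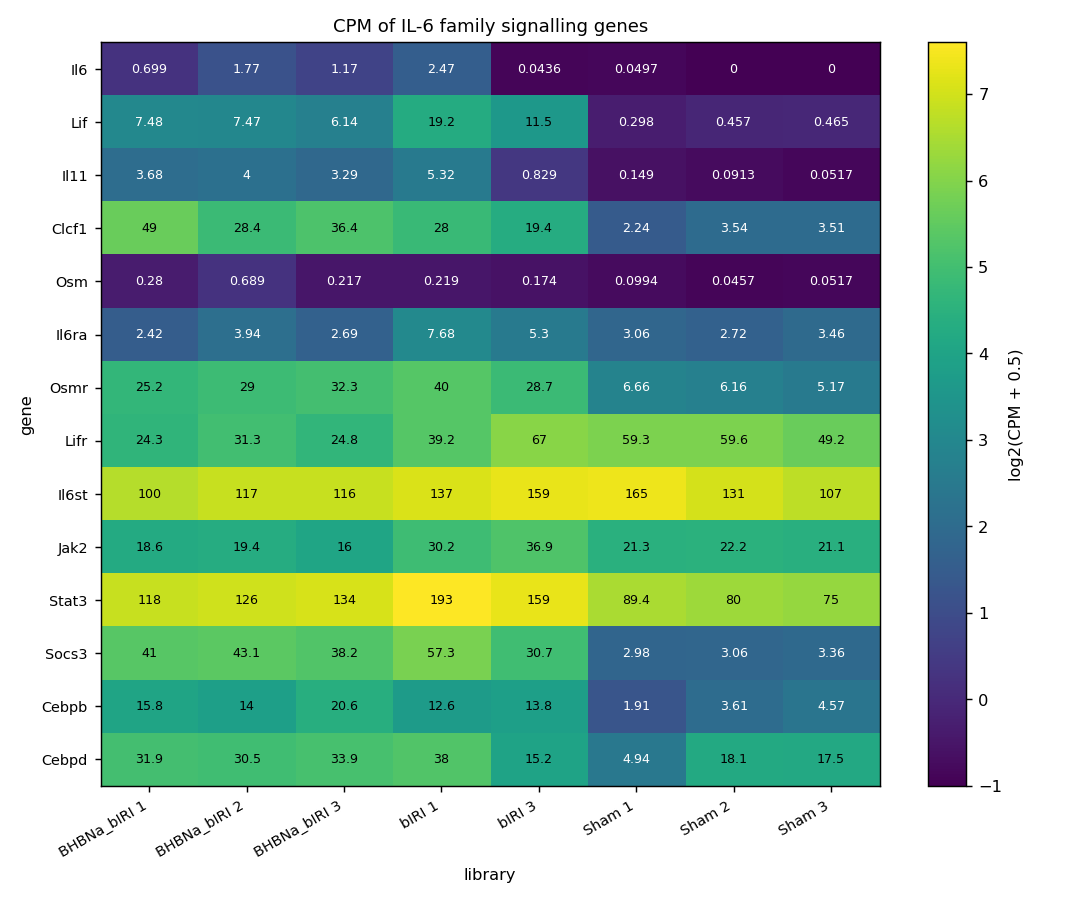
Level in CPM of 14 genes of interleukin 6 family signalling in each library, with colour on a log2(CPM + 0.5) scale and the CPM printed in each cell. Socs3 is at 30.7 CPM or more in the injured libraries and at 3.36 CPM or less in Sham, and Il6 in bIRI replicate 3 is at 0.0436 CPM, as low as in Sham.

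Other acute phase proteins moved in both directions. Of 27 other positive acute phase genes tested, 9 were called higher and 2 lower in bIRI than in Sham (median log2 fold change 0.55). The shares of all genes tested called in that comparison were 18.9% higher and 16.2% lower. Lcn2, which binds bacterial siderophores and is a marker of tubular injury, had a log2 fold change of 9.31 ± 0.48 (adjusted p = 4.52e-05), and the protease inhibitor Serpina3n had 5.53 ± 0.80 (adjusted p = 0.000981). Apcs, serum amyloid P, was lower at -5.06 ± 0.58 (adjusted p = 0.000323), as was Serpinf2, the plasmin inhibitor (adjusted p = 0.000335). In BHBNa_bIRI against bIRI 1 of the 27 was called higher, Apcs (2.57 ± 0.57, adjusted p = 0.0303), and 1 lower, the complement factor Cfb (-3.04 ± 0.81, adjusted p = 0.0407). Between the injured groups, 4.88% of all genes tested were called higher and 8.65% lower. Against Sham, BHBNa_bIRI had 11 called higher and 3 lower, where 21.3% of all genes tested were called higher and 22.2% lower. Of 8 negative acute phase genes tested, which fall in liver in the acute phase, 4 were called in bIRI against Sham, each of them lower: Alb (-3.68 ± 0.40), Ttr (-2.67 ± 0.41), Igfals (-2.04 ± 0.24) and Apoa2 (-2.03 ± 0.35). Apoa2 was called higher in BHBNa_bIRI than in bIRI (1.36 ± 0.34, adjusted p = 0.0361), and 1 gene, Rbp4, was called higher and 4 lower in BHBNa_bIRI than in Sham.

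Genes that act on fibrinogen or fibrin were also read. Of 23 coagulation and fibrinolysis genes tested, 11 were called higher and 4 lower in bIRI than in Sham (median 1.10). All genes tested gave 18.9% called higher and 16.2% lower in that comparison. F13a1, the subunit of the factor that cross-links fibrin, rose by 4.40 ± 0.56 (adjusted p = 0.000537) and Plaur, the urokinase receptor, by 3.72 ± 0.32 (adjusted p = 9.25e-05). In BHBNa_bIRI against bIRI 1 was called, tissue factor F3, which was lower (-0.96 ± 0.23, adjusted p = 0.0347). Among all genes tested 8.65% were called lower there and 4.88% higher. Against Sham, 12 were called higher and 3 lower in BHBNa_bIRI, where 21.3% of all genes tested were called higher and 22.2% lower. Of 13 fibrinogen receptors and partners, 6 were called higher and 1 lower in bIRI than in Sham, among them the integrin subunits Itgam (2.68 ± 0.56) and Itgb3 (2.48 ± 0.44). Icam1, an endothelial partner of fibrinogen, was at 34.9, 38.7 and 32.5 CPM in BHBNa_bIRI, 43.7 and 24.4 CPM in bIRI and 27.6, 28.0 and 27.8 CPM in Sham, and was not called in any of the 3 comparisons. In BHBNa_bIRI against bIRI Fn1, fibronectin, was the 1 of the 13 called (1.17 ± 0.32, adjusted p = 0.0418), and against Sham 8 were called, each of them higher. The shares over all genes tested, given above for each comparison, apply to these 13 as well.

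Of 13 receptors and scavengers of serum amyloid A, haptoglobin and orosomucoid, 4 were called higher in bIRI than in Sham, among them Cd163, the receptor for haptoglobin with hemoglobin (2.37 ± 0.73, adjusted p = 0.0315), and Hmox1, which breaks down heme (1.31 ± 0.33, adjusted p = 0.014), and 1 lower, a share near the 35.1% of all genes tested. None of the 13 was called between BHBNa_bIRI and bIRI by edgeR, where 3 had an unadjusted p under 0.05 and DESeq2 called 2, and 6 were called higher and 2 lower in BHBNa_bIRI than in Sham. The shares of all genes tested were 4.88% higher and 8.65% lower in the former comparison, and 21.3% higher and 22.2% lower in the latter. Of 18 genes of copper and iron handling, 3 were called higher and 5 lower in bIRI than in Sham, where 35.1% of all genes tested were called, 18.9% higher and 16.2% lower. Among the 5 were the copper importer Slc31a1 at -1.25 ± 0.17 (adjusted p = 0.000777) and the iron transporter Slc11a2 at -1.59 ± 0.20 (adjusted p = 0.000489). In BHBNa_bIRI against bIRI 2 were called higher and 3 lower, where 4.88% of all genes tested were called higher and 8.65% lower. Among the 3 were the copper pump Atp7a (-2.78 ± 0.70, adjusted p = 0.0365) and Heph, a membrane homologue of Cp (-1.68 ± 0.33, adjusted p = 0.0283), calls that were lost with the block. Against Sham, BHBNa_bIRI had 4 called higher and 11 lower, where 21.3% of all genes tested were called higher and 22.2% lower.

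Among 11679 to 11682 other genes tested with a mean of at least 5 CPM in a group, those most like the mean profile of the 3 fibrinogen chains over the 8 libraries were Gpr182 (Pearson r = 0.983), AA467197 (0.982), Tnfaip2 (0.981), Ehd4 (0.980) and Basp1 (0.978). Those most like Saa1, taken alone since Saa2 was not tested, were Tnfaip2 (0.986), B3gnt3 (0.979), Cers4 (0.976), Fgg (0.974) and Gpr182 (0.973). Those most like Cp were Myo1e (0.988), Slc7a1 (0.986), Ypel2 (0.983), Pde8b (0.981) and 4930523C07Rik (0.980). These values describe libraries that fall into 3 groups and share their depth, and carry no test. Gpr182 was at 11.4, 14.9 and 22.2 CPM in BHBNa_bIRI, 19.3 and 14.6 CPM in bIRI, and 7.18, 7.97 and 7.91 CPM in Sham. Its order within BHBNa_bIRI was that of the chains, which its choice by r over these same libraries favours, so that this is no separate finding.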

How the data were processed

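Poly(A)-selected RNA of mouse kidney was sequenced as paired-end libraries, per the labels' protocols. The authors deposited 1 table of raw read counts per gene for each of 9 libraries. Per the submitters' processing notes, HISAT2, mm10, featureCounts, Subread and DESeq2 were named, and their versions, the annotation and the strand setting are not given in the sources used here. bIRI replicate 2, an average of the other bIRI libraries, was left out.

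Symbols, positions and transcript lengths came from GENCODE M21 (GRCm38), which named 29220 of 29678 identifiers. The filterByExpr function of edgeR 4.0.16 (R 4.3.3) kept 17967 genes. Counts were scaled by TMM factors of 0.830 to 1.37, and a robust quasi-likelihood fit with 1 mean per group gave a biological coefficient of variation of 0.296, on 5 residual degrees of freedom. The 3 contrasts were two-sided, with Benjamini-Hochberg adjustment and a threshold of 0.05. Standard errors were computed as the absolute log2 fold change over the root of F. The procedure was tested on simulated data. TPM used the longest protein-coding transcript, folds against 0 counts used a floor of 3 counts per library, and intervals and floors cover counting error only. Transcripts and promoter windows were aligned with Biopython 1.88, and promoter windows came from RefSeq.

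All 9 genes are named in each comparison. From each gene list, up to 6 called genes with the largest absolute log2 fold change among genes with a mean of at least 1 CPM in a group could be named, plus Il6, Osmr, Socs3, Stat3, Alb, Serpina3n and Icam1. The marker genes were named for their levels. The members and lists were chosen with earlier results of these data known. Listed genes Mug1, F12, Elane and Gp1bb are not analysed here. Alternatives were DESeq2 1.42.0, other scalings and filters, a fit of the compared groups only, all 9 tables, the replicate number as a block, offsets for transcript length and GC content, and leaving out each library. Same-numbered libraries of different groups had deviations correlated at -0.2065 to 0.0925, and different-numbered ones at -0.174 to 0.2065. With 2 bIRI libraries, whose deviations mirror each other, these values cannot exclude pairing. The numbers were not treated as pairs in the fit reported, and the block is given as an alternative.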

Additional observations from a re-analysis of the deposited data

How the results depend on the processing

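In BHBNa_bIRI against bIRI the count of genes called, 2431, was 4441 by DESeq2, 5847 with all 9 tables, 2 with offsets for transcript length and GC content, 1 with the compared groups only, 0 with the replicate number as a block, and 0 with the block and offsets together. It ran from 0 (without Sham replicate 1 or 2 or BHBNa_bIRI replicate 1) to 8381 (without bIRI replicate 1) when a library was left out, with 1 without BHBNa_bIRI replicate 3, 794 without bIRI replicate 3, 1026 without Sham replicate 3 and 1154 without BHBNa_bIRI replicate 2. Of the acute phase genes, 0 were called, against 2 by DESeq2, 2 with no filter and 3 with all 9 tables (Saa3, Hp and Cp), and 0 to 2 when a library was left out, the 2 being Saa3 and Cp without bIRI replicate 1. The estimate turned negative for Saa1 with the block (-0.31), the offsets (-0.62) and both (-1.34), without bIRI replicate 3 (-0.14) and without BHBNa_bIRI replicate 3 (-0.25), with values up to 0.78 (without bIRI replicate 1) when a library was left out. It turned negative for Fgg without bIRI replicate 3 (-0.29) and BHBNa_bIRI replicate 3 (-0.46), with values up to 0.67 (without bIRI replicate 1), and for Orm1 with the block (-0.60) and with block and offsets (-1.44). In bIRI against Sham, leaving out a library gave 4180 to 9064 genes called, with 4180 and 4192 without Sham replicates 1 and 2, and 6 to 8 of the acute phase genes. Hp was not called there with no filter (adjusted p = 0.226), and Orm1 was called by DESeq2 (0.0405), with no filter (0.0144) and without BHBNa_bIRI replicate 1 (0.0309). In BHBNa_bIRI against Sham, Orm1 was not called with the block (adjusted p = 0.0506) or with block and offsets (0.059), and leaving out a library gave 5408 to 10308 genes called and 7 or 8 of the acute phase genes. Fga, Fgb, Fgg, Saa1, Saa3 and Cp were called higher in both comparisons with Sham under every alternative run. Over all alternatives, adjusted p-values in BHBNa_bIRI against bIRI ran from 0.00295 to 0.228 for Saa3, 0.0256 to 0.707 for Hp and 0.00888 to 0.734 for Cp, in bIRI against Sham from 0.00261 to 0.303 for Hp and 0.0144 to 0.175 for Orm1, and in BHBNa_bIRI against Sham from 0.000477 to 0.071 for Orm1. The block changed no other call for these genes. DESeq2 gave no adjusted p for Hp, and fits with a lone bIRI library assume that it varies like the other groups. There were 2 bIRI libraries, Saa2 and Orm1 had few or no counts in most libraries, and Saa1 ran from 16 to 88 counts within BHBNa_bIRI. The differences of Saa1, Saa2 and Orm1 between injured groups were not resolved. The causes of these changes were not tested.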
